A study of Homo sapiens with 12 samples.

Results

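BCL2 family survival and death genes were followed on 12 arrays of 2 prostate cancer cell lines given dexamethasone, a synthetic glucocorticoid, or its solvent. The members were chosen by symbol: BCL2, BCL2L1, BCL2L2 and MCL1 on the survival side, BAX and BAK1 as the pore formers, and BID, BAD, BIK and BMF as the BH3-only genes. All 10 were measured, by 1 row each, among 17687 named genes, and none lay among the dimmest 25% of genes. The groups were LNCaPabl-Enza with 100 nM dexamethasone (Enza_Dex), LNCaPabl-Enza with DMSO (Enza_Ctrl), LNCaPabl-Abi with 100 nM dexamethasone (Abi_Dex) and LNCaPabl-Abi with DMSO (Abi_Ctrl), each with 3 arrays and 24 h of treatment. Their names derive from LNCaP, an established line of human prostate cancer, and both were grown in medium with fetal calf serum. The labels do not spell out Abi or Enza and do not say whether the triplicates were separate cultures, so each line is a single model and the p-values measure only the spread between these arrays.

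The BCL2 family controls the permeability of the outer mitochondrial membrane. When BAX and BAK1 open pores in that membrane, cytochrome c leaves the mitochondria and caspases are activated. The survival proteins hold BAX and BAK1 in check, and BH3-only proteins bind either the survival proteins or the pore formers and shift the balance towards death. Glucocorticoids kill lymphoid cells through this family, whereas epithelial cells, those of the prostate included, usually survive them. Many steps of the family are set by phosphorylation, cleavage and protein turnover, which RNA levels do not show.

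BCL2L1 encodes BCL-xL, a survival protein, and carried the clearest difference of the family. It was highest in Abi_Dex, and its promoter windows are shown because the main result below turns on this gene. The RefSeq table for GRCh38.p14 holds 2 windows of 300 bases for it, each running from 250 bases before an annotated start to 50 after, on the minus strand of chromosome 20, at chr20:31723914-31724213 and chr20:31722819-31723118. Capitals mark TATAAA in the first window, where matches begin 208 and 125 bases before the start, and GGGCGG, read here as its reverse complement, 5 bases before the start in the second.
BCL2L1 window 1: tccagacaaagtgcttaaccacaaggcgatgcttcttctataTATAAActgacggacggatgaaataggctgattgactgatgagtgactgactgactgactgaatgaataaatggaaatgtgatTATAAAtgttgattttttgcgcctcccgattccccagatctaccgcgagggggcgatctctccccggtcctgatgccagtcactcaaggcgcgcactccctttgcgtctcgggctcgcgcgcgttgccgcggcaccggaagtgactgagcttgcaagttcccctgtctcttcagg
BCL2L1 window 2: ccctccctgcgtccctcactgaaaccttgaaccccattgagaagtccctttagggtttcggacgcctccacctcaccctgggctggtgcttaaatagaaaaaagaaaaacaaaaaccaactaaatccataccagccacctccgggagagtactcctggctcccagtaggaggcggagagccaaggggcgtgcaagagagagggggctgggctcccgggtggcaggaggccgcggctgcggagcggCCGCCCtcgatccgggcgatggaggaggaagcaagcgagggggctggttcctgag
The search on both strands also covered letters of the glucocorticoid response element, namely AGAACA and TGTTCT spaced by 3 bases, its inner part ACANNNTGT, which every match of the longer motif contains, and the short motif TGTTCT, which the longer motif holds at both ends. Neither BCL2L1 window held any of these. Among the 14 windows listed for 7 of the 10 members (BCL2, BCL2L1, BAX, BAK1, BID, BAD and BMF), 1 held ACANNNTGT, the window of BAK1, and 0 held TGTTCT or the full element. Of all 35116 windows in the table, 5.37% held ACANNNTGT, 14.8% TGTTCT, 11.5% TATAAA and 45.0% GGGCGG, and 1 window held the full element. These letters say nothing about binding further away or outside the windows.

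Enza_Ctrl replicate 2 stood apart and has to be known before the values. Its median Pearson r with the other arrays was 0.855, against 0.986 to 0.990 for each of the other 11. The interquartile range of its log2 values was 3.80, against 5.92 to 6.08 on those arrays, so its scale was narrower. Its mean background was 5.50, higher than on any of the other 11. The cause of these departures was not tested, and they limit every value from this array. Of the 6 measured prostate luminal markers, HOXB13, KRT8, KRT18 and FOLH1 had median levels from 12.1 to 15.7 over those 11 arrays, KLK3 had 7.06 and KLK2 5.32. The measured basal, neuroendocrine, fibroblast, immune and endothelial markers had medians from 2.76 to 7.87 there, with COL1A2 the highest of them and no other above 6.20. On Enza_Ctrl replicate 2, 9 of the 16 measured markers of those other cell types were above the range of the other 11 arrays and 3 below it. The largest departure was that of the endothelial marker CDH5 (9.25, against 3.45 to 3.94), while the endothelial marker VWF was below its range (4.97, against 5.00 to 5.27). Of the 6 luminal markers, HOXB13 (10.94, against 12.48 to 13.23) and KRT18 (10.58, against 11.01 to 12.41) were below the range and FOLH1 above it. The part of these markers in the results was not tested. Differences within LNCaPabl-Abi and between the treated lines do not use this array, so leaving it out changes only their SE and p. With all 12 arrays the members' SEs there were 0.27 to 0.92 and every adjusted p was 1.00.

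On Enza_Ctrl replicate 2, 8 of the 10 members were lower than the mean of the other 2 Enza_Ctrl arrays, and 5 by more than 1 on the log2 scale. Of all genes, 52.7% were lower there. BCL2L1 had a difference of -4.45, BAK1 had a difference of -3.24, BAX -2.86, BIK -2.05 and BCL2L2 -1.11. BAD had 0.53 and BMF 0.35 in the other direction, while BID (-0.03) and MCL1 (-0.31) were near the other 2 arrays. For 6 members (these 5 and BCL2) the value lay outside the range of the same quantity on all other 11 arrays. The share of all genes outside that range was not computed, so this count has no background and is not read as a trait of the family. Over all genes 53.0% deviated by more than 1 on this array, so the members' share of 5 in 10 is near the background of the array. Across the other 11 arrays the median share of genes with such a deviation was 1.37%.

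**Figure D1:**
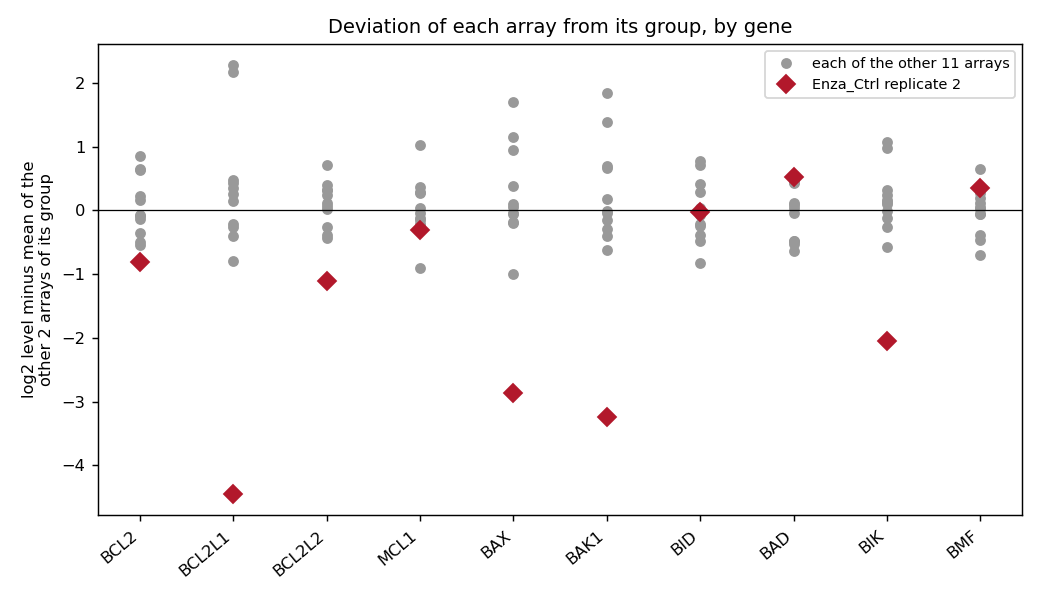
Each point is the deposited log2 level of a gene on 1 array minus the mean of the other 2 arrays of its group; red diamonds are Enza_Ctrl replicate 2 and grey circles the other 11 arrays. Enza_Ctrl replicate 2 lies far below the grey circles for BCL2L1 (-4.45), BAK1 (-3.24), BAX (-2.86) and BIK (-2.05), and within them for MCL1, BID, BAD and BMF; the high grey circles include the other 2 Enza_Ctrl arrays, whose comparison mean contains it.

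Among the survival genes, BCL2L1 separated the dexamethasone-treated lines. Its log2 levels were 8.07, 8.88 and 8.83 in Enza_Dex, against 10.03, 9.58 and 9.54 in Abi_Dex. The groups did not overlap, as was the case for 20.1% of all genes in this comparison. For BCL2L1 the 3 Abi_Dex arrays were the highest 3 of all 12. BCL2L1 was lower in Enza_Dex by -1.12 ± 0.23 (SE) on the log2 scale without Enza_Ctrl replicate 2, a 2.18-fold lower level on the deposited scale (95% interval of the log2 difference from -1.62 to -0.63). This passed limma's test with Benjamini-Hochberg adjustment over all genes (adjusted p = 0.0168). Of all genes, 2.28% were called in this comparison without that array, and BCL2L1 was the only one of the 10 members called. With all 12 arrays the same difference had an SE of 0.92 and an adjusted p of 1.00, where 0.277% of genes and no member were called. Enza_Ctrl replicate 2 is in neither group of this comparison and enters only through the shared estimate of the spread. A fit of the 6 dexamethasone arrays alone also called BCL2L1 (adjusted p = 0.0309). Without Enza_Ctrl replicate 2 the call was lost when Abi_Dex replicate 1 was also left out (-0.97, adjusted p = 0.108) or Enza_Dex replicate 1 (-0.86, adjusted p = 0.0993). It held in the other 9 of 11 such omissions. Those of a DMSO array could not move the difference from -1.12, since they changed only the shared spread.

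Between the untreated lines the BCL2L1 difference was not called with either set of arrays, and its size depended on Enza_Ctrl replicate 2. BCL2L1 was at 8.73, 4.31 and 8.80 in Enza_Ctrl, against 9.05, 8.68 and 9.12 in Abi_Ctrl. Leaving out the 4.31 of replicate 2, the groups overlapped and the difference was -0.19 ± 0.26 (SE, adjusted p = 0.855, 95% interval from -0.74 to 0.36). With that array it was -1.67 ± 0.92 (adjusted p = 0.432). The 4 group means, without Enza_Ctrl replicate 2, ran from 8.59 ± 0.46 in Enza_Dex (SD, n = 3) through 8.76 ± 0.05 in Enza_Ctrl (SD, n = 2) and 8.95 ± 0.23 in Abi_Ctrl (SD, n = 3) to 9.72 ± 0.27 in Abi_Dex (SD, n = 3). The first 3 overlap within their spread and only the step to Abi_Dex exceeds it. BCL2L1 had the widest range of group means of the 10 members, 1.12 on the log2 scale.

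**Figure D2:**
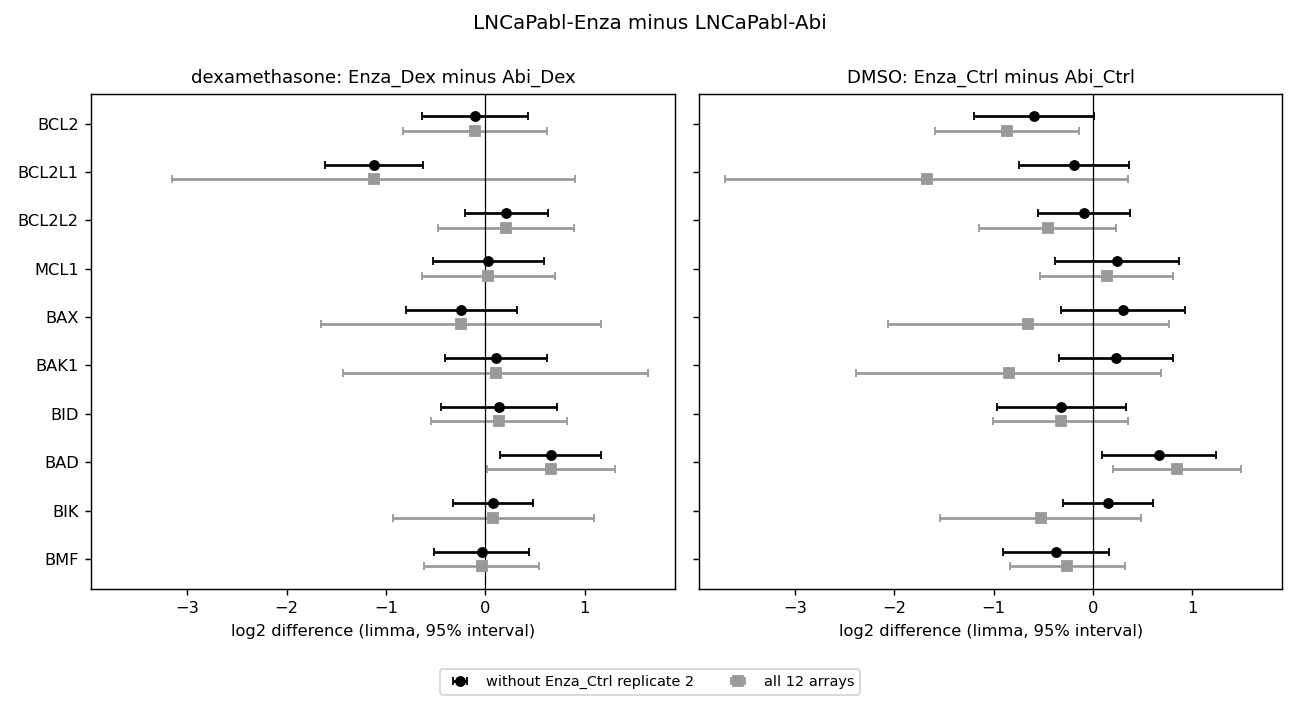
Points are log2 differences of LNCaPabl-Enza minus LNCaPabl-Abi with 95% limma intervals, for dexamethasone (left) and DMSO (right), without Enza_Ctrl replicate 2 (black circles) and with all 12 arrays (grey squares). In the left panel BCL2L1 lies farthest from 0 at -1.12, and BAD is positive in both panels (0.66 and 0.67 without that array).

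The dexamethasone difference of BCL2L1 in LNCaPabl-Abi did not pass over all genes. The levels of 10.03, 9.58 and 9.54 in Abi_Dex all lay above the 9.05, 8.68 and 9.12 of Abi_Ctrl, a log2 difference of 0.77 ± 0.23 (SE) without Enza_Ctrl replicate 2. Its 95% interval ran from 0.27 to 1.26, with an unadjusted limma p of 0.00485 and an adjusted p of 0.510. The 12-array fit gave an SE of 0.92 and an adjusted p of 1.00. Arrays of the 2 groups did not overlap for 12.3% of all genes in this comparison, and among the members this held for BCL2L1, higher in Abi_Dex, and BCL2, lower there. That share of 2 in 10 is close to the background.

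In LNCaPabl-Enza, BCL2L1 had 8.07, 8.88 and 8.83 with dexamethasone, and the DMSO arrays had 8.73, 4.31 and 8.80. The difference was -0.17 ± 0.26 (SE, adjusted p = 1.00) without the array at 4.31 and 1.32 ± 0.92 (adjusted p = 0.523) with it, so its direction rests on that array. The difference between the responses, LNCaPabl-Enza minus LNCaPabl-Abi, was -0.94 ± 0.35 (SE) without it. Its 95% interval from -1.68 to -0.19 lay below 0, but the limma adjusted p over all genes was 0.999. Over the 12 arrays it was 0.55 ± 1.31 (adjusted p = 0.874). A different response of BCL2L1 in the 2 lines was therefore not called with either set. By comparison SGK1, a kinase induced through the glucocorticoid receptor, had differences of 4.43 ± 0.70 (SE, adjusted p = 0.269) in LNCaPabl-Enza and 7.39 ± 0.63 (adjusted p = 5.08e-05) in LNCaPabl-Abi without Enza_Ctrl replicate 2. NR3C1, the glucocorticoid receptor, had -1.06 ± 0.84 and -1.45 ± 0.75, and KLK3, which encodes prostate-specific antigen, 0.49 ± 0.47 and 1.76 ± 0.42 in the same fits, with none of these 4 called.

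BCL2, the founding survival gene of the family, had the opposite order in LNCaPabl-Abi. It was at 6.60, 6.40 and 6.36 in Abi_Dex, against 6.62, 7.41 and 6.93 in Abi_Ctrl. All treated arrays lay below all DMSO arrays. The log2 difference was -0.53 ± 0.25 (SE) without Enza_Ctrl replicate 2 (limma adjusted p = 0.699, 95% interval from -1.07 to 0.01). In LNCaPabl-Enza the levels were 6.01, 6.11 and 6.92 with dexamethasone, against 6.55, 5.58 and 6.24 with DMSO. That difference was -0.05 ± 0.28 without replicate 2 and 0.22 ± 0.33 with all 12 arrays, neither called, and the groups overlapped.

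Untreated LNCaPabl-Enza had the lower BCL2 level of the 2 lines on each array, with 6.55, 5.58 and 6.24 in Enza_Ctrl, against 6.62, 7.41 and 6.93 in Abi_Ctrl. The difference was -0.59 ± 0.28 (SE, adjusted p = 0.461) without replicate 2 and -0.86 ± 0.33 (adjusted p = 0.432) with it. Groups did not overlap for 24% of all genes in this comparison without that array and for 14.2% with it. BCL2 and BAD were the members without overlap in both cases, a share of 2 in 10 that lies between those backgrounds. After dexamethasone the lines overlapped in BCL2, with -0.11 ± 0.25 (adjusted p = 0.941).

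MCL1, a survival protein with a very short life, was at 13.42, 13.78 and 13.56 in Enza_Dex and 13.45, 13.07 and 13.30 in Enza_Ctrl. It was at 13.42, 13.45 and 13.80 in Abi_Dex and 13.05, 12.53 and 13.82 in Abi_Ctrl. Group means without Enza_Ctrl replicate 2 were 13.13 to 13.58, and the Abi_Ctrl arrays were spread more widely than those means, with an SD of 0.65. The dexamethasone difference was 0.21 ± 0.29 (SE) in LNCaPabl-Enza and 0.42 ± 0.26 in LNCaPabl-Abi without Enza_Ctrl replicate 2 (limma adjusted p = 1.00 and 0.756). The intervals ran from -0.41 to 0.83 and from -0.14 to 0.98. BCL2L2, which encodes the survival protein BCL-w, had differences of 0.19 ± 0.22 and -0.10 ± 0.19 in the same order, neither called, and group means between 8.46 and 8.67. Including Enza_Ctrl replicate 2, the differences in LNCaPabl-Enza were 0.56 ± 0.31 for BCL2L2 and 0.31 ± 0.30 for MCL1 (adjusted p = 0.523 and 0.570).

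**Figure D3:**
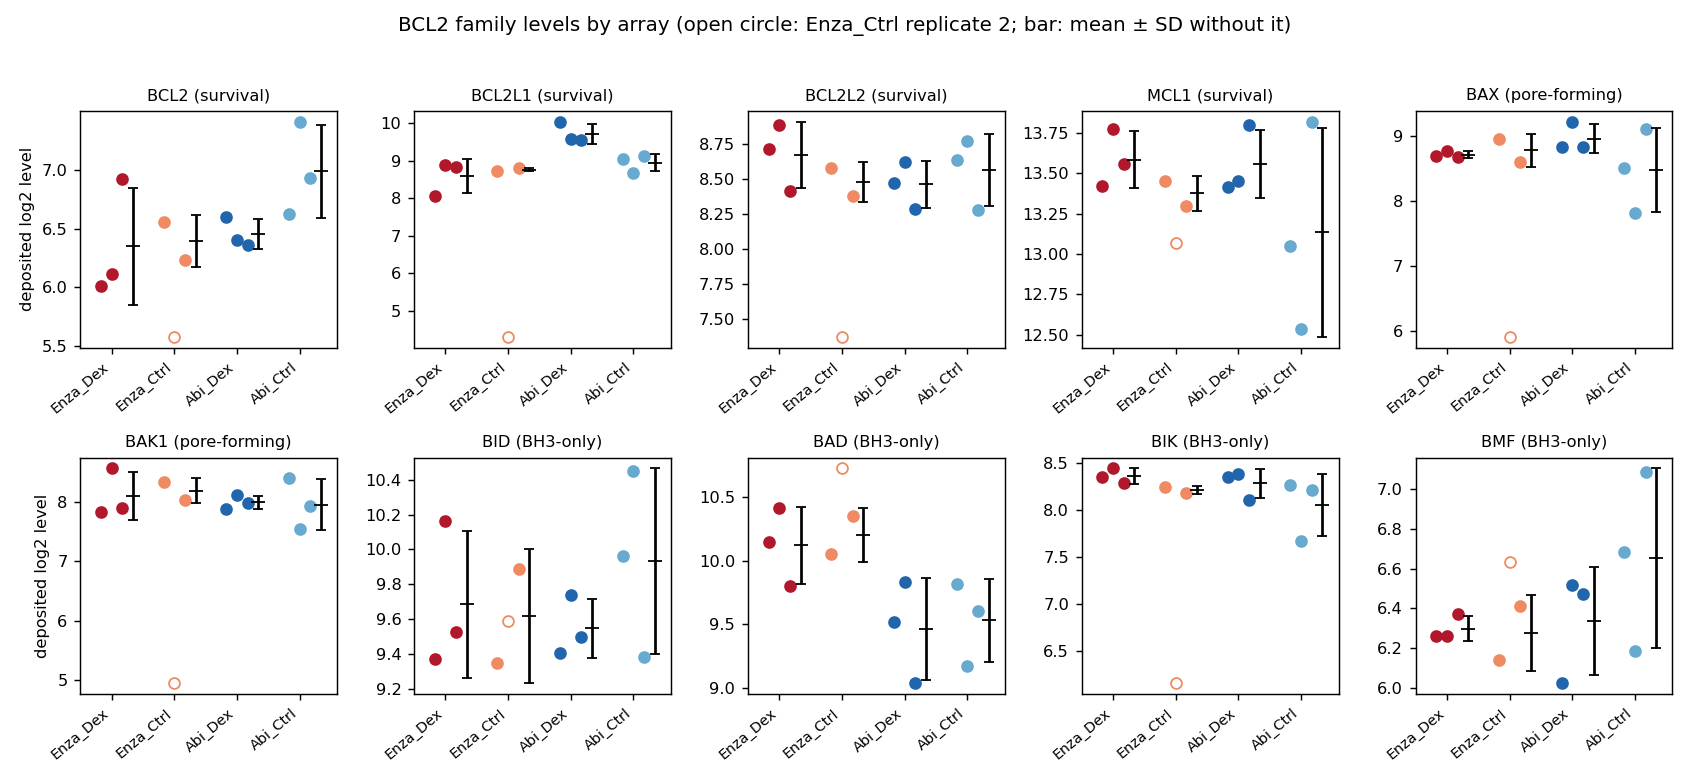
Deposited log2 levels of the 10 members on each array, by group, with 1 panel and its own vertical scale per gene; filled circles are arrays, the open circle is Enza_Ctrl replicate 2, and black bars give the mean ± SD without it (n = 2 for Enza_Ctrl, n = 3 otherwise). BCL2L1 is highest in the 3 Abi_Dex arrays, BAD is higher in most LNCaPabl-Enza arrays, and the open circle sits lowest for BCL2, BCL2L1, BCL2L2, BAX, BAK1 and BIK.

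The pore formers gave no call. BAX was at 8.68, 8.77 and 8.68 in Enza_Dex and 8.96, 5.91 and 8.59 in Enza_Ctrl. In LNCaPabl-Abi it was at 8.82, 9.21 and 8.83 in Abi_Dex and 8.50, 7.81 and 9.10 in Abi_Ctrl. Its dexamethasone difference was -0.06 ± 0.29 (SE) in LNCaPabl-Enza and 0.48 ± 0.26 in LNCaPabl-Abi without Enza_Ctrl replicate 2 (limma adjusted p = 1.00 and 0.730). The value for LNCaPabl-Abi moved with single DMSO arrays, to 0.15 without Abi_Ctrl replicate 2 and 0.80 without Abi_Ctrl replicate 3. With all 12 arrays the value for LNCaPabl-Enza was 0.89 ± 0.64 (adjusted p = 0.523). Each Enza_Dex array was below each Abi_Dex array for BAX, at 8.71 ± 0.05 and 8.95 ± 0.22 (SD, n = 3 each), and the log2 values differed by -0.24 ± 0.26 (SE, adjusted p = 0.829). Such separation was found for 20.1% of all genes between the treated lines, and for 2 of the 10 members, BAX and BCL2L1.

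BAK1 had the smallest dexamethasone difference in LNCaPabl-Abi, 0.04 ± 0.24 (SE, adjusted p = 0.983), with 7.99 ± 0.11 in Abi_Dex and 7.95 ± 0.43 in Abi_Ctrl (SD, n = 3 each). In LNCaPabl-Enza it was at 7.83, 8.57 and 7.91 with dexamethasone, against 8.34, 4.95 and 8.04 with DMSO. Apart from the 4.95 of Enza_Ctrl replicate 2, all 11 arrays lay between 7.54 and 8.57. The difference was 0.99 ± 0.70 (SE) with all 12 arrays and -0.09 ± 0.27 without that one (adjusted p = 0.523 and 1.00).

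Of the BH3-only genes among the chosen members, BAD differed most between the lines. BAD binds and neutralises BCL2 and BCL-xL unless it is phosphorylated by survival kinases. With DMSO it was at 10.05, 10.73 and 10.35 in Enza_Ctrl, against 9.81, 9.18 and 9.60 in Abi_Ctrl, without overlap. With dexamethasone it was at 10.14, 10.41 and 9.80 in Enza_Dex, against 9.52, 9.83 and 9.04 in Abi_Dex, where the lowest Enza_Dex array was just under the highest Abi_Dex array. The log2 difference was 0.67 ± 0.27 (SE) for the untreated lines and 0.66 ± 0.24 for the treated lines without Enza_Ctrl replicate 2. Unadjusted limma p was 0.0252 and 0.0155, and the adjusted p of 0.337 and 0.249 did not pass. With all 12 arrays the values were 0.84 ± 0.29 and 0.66 ± 0.29 (adjusted p = 0.406 and 1.00). The treated and untreated comparisons share no array, apart from the common estimate of spread. BAD was near level within each line, with dexamethasone differences of -0.08 ± 0.27 in LNCaPabl-Enza and -0.07 ± 0.24 in LNCaPabl-Abi without Enza_Ctrl replicate 2, and -0.26 ± 0.29 in LNCaPabl-Enza with it.

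BID, which caspase-8 cleaves to link death receptors to mitochondria, had group means between 9.55 and 9.93. Its dexamethasone differences were 0.07 ± 0.30 (SE) in LNCaPabl-Enza and -0.39 ± 0.27 in LNCaPabl-Abi without Enza_Ctrl replicate 2, and 0.08 ± 0.31 in LNCaPabl-Enza with it. BIK, a BH3-only protein of the endoplasmic reticulum, was at 8.36 ± 0.08 in Enza_Dex (SD, n = 3) and 8.21 ± 0.04 in Enza_Ctrl without replicate 2 (SD, n = 2). All 3 Enza_Dex arrays were above all Enza_Ctrl arrays, and the difference was 0.15 ± 0.21 (SE, adjusted p = 1.00), or 0.83 ± 0.46 (adjusted p = 0.523) with replicate 2, which was at 6.16. Groups did not overlap for 15.9% of all genes in that comparison without replicate 2 and for 8.74% with it, and BIK was the only member of the 10 to show this. In LNCaPabl-Abi the BIK difference was 0.23 ± 0.19 (adjusted p = 0.815).

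BMF, which is held on the cytoskeleton by dynein light chain until it is released, was at 6.26, 6.26 and 6.37 in Enza_Dex and 6.14, 6.63 and 6.41 in Enza_Ctrl. In LNCaPabl-Abi it was at 6.03, 6.52 and 6.47 in Abi_Dex and 6.68, 6.19 and 7.09 in Abi_Ctrl. The differences were 0.02 ± 0.25 (SE) and -0.31 ± 0.22 without Enza_Ctrl replicate 2, in the order LNCaPabl-Enza then LNCaPabl-Abi, with both pairs of groups overlapping. That array turned the sign in LNCaPabl-Enza, where the 12-array difference was -0.10 ± 0.27.

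**Figure D4:**
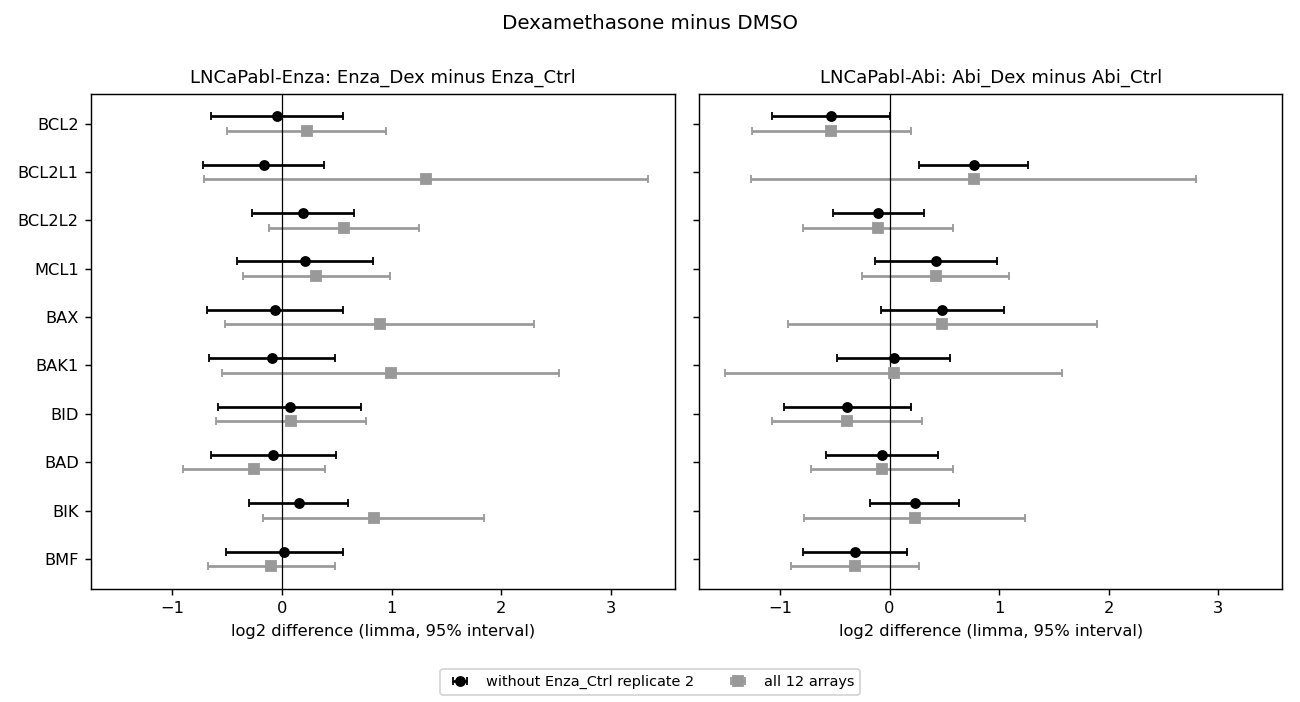
Points are log2 differences of dexamethasone minus DMSO with 95% limma intervals in LNCaPabl-Enza (left) and LNCaPabl-Abi (right), without Enza_Ctrl replicate 2 (black circles) and with all 12 arrays (grey squares). On the right BCL2L1 (0.77 ± 0.23, SE) is the only member whose black interval lies wholly above 0; on the left the grey squares of BCL2L1, BAX, BAK1 and BIK lie far to the right of their black circles.

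As a family, the members showed no common direction. In LNCaPabl-Enza 5 of 10 had a positive dexamethasone difference without Enza_Ctrl replicate 2 (51% of all genes), with a median of -0.01 against 0.00487 over all genes. Including that array, 8 of 10 were positive (54% of all genes), with a median of 0.44 against 0.06 over all genes. In LNCaPabl-Abi 5 of 10 were positive (50.4% of all genes), with a median of -0.01 against 0.00225 over all genes. No member was called in either dexamethasone comparison, where limma called 0% of all genes in LNCaPabl-Enza with either set of arrays. In LNCaPabl-Abi it called 0.0283% with 12 arrays and 0.141% without Enza_Ctrl replicate 2. Counting unadjusted p-values under 0.05, LNCaPabl-Enza had 0 members with either set, where 3% of genes had one without that array and 3.96% with it. LNCaPabl-Abi had 1 member (BCL2L1) among 7.09% of genes without that array, and 0 members among 1.36% with it. For the difference between the responses, no member and 0% of genes were called with either set, and the members with an unadjusted p under 0.05 were BCL2L1 without that array (3.2% of genes) and none with it (1.5%). Between the untreated lines no member was called, where 1.29% of genes were called without Enza_Ctrl replicate 2 and 0.266% with it. Unadjusted p-values under 0.05 were found there for BAD without that array (11.1% of genes) and for BAD and BCL2 with it (11.3%). Between the treated lines they were found for BCL2L1 and BAD without it (11.5% of genes) and for BAD with it (4.14%). The SEs of the members ran from 0.19 to 0.30 without that array in the comparisons other than the difference between responses.

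The levels of members moved together only in part. Over the 11 arrays left without Enza_Ctrl replicate 2, 28 of the 45 pairs had a positive Pearson r, with a median of 0.06. MCL1 and BAX were the most alike (r = 0.82), followed by BAX and BIK (r = 0.76), while BCL2 and BIK were the most opposed (r = -0.71) and BAX and BID the next (r = -0.70). These arrays share lines, treatments and replicate structure, so the r values are descriptions.

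For the 3 members with the widest range of group means, the genes with the most similar pattern over the same 11 arrays were as follows. BCL2L1 was most like MCCC1 (r = 0.92), STAT3 and COBL (r = 0.89 each). STAT3, a transcription factor of cytokine signalling, averaged 10.47 in Enza_Dex, 10.29 in Enza_Ctrl, 11.36 in Abi_Dex and 10.49 in Abi_Ctrl. Abi_Dex was the highest group for MCCC1, STAT3 and COBL alike. They were chosen for their likeness to BCL2L1, so this is not a separate result. BAD was most like IGDCC3, PLPPR5 and MCOLN1 (r = 0.94 each), of which the first and second averaged between 2.60 and 3.26 in all 4 groups. BCL2 was most like MRGPRG (r = 0.96, averaging 3.21 to 3.43 in all 4 groups), KRR1 (r = 0.93) and ZNF93 (r = 0.92). These genes were picked as the highest of 17687.

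The wider apoptosis pathway gave no call. Of 12 measured other BCL2 family genes, 9 of caspase activation, 6 inhibitors of apoptosis, 11 of the death receptor pathway and 10 mitochondrial partners or turnover factors, none was called in any of the 5 comparisons with either set of arrays. In LNCaPabl-Abi the medians of these lists were 0.03, -0.10, 0.11, 0.16 and -0.03. The highest, that of the death receptor pathway, came with 9 of 11 positive differences, where 50.4% of all genes were positive. In LNCaPabl-Enza without Enza_Ctrl replicate 2 the list medians were between -0.01 and 0.04. With it they were 0.04, 0.41, 0.37, 0.21 and 0.23 in the order of the lists above, against 0.06 over all genes. All 9 measured genes of caspase activation had a positive difference with that array, where 54% of all genes were positive. Without it 5 of the 9 were positive, where 51% of all genes were.

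Single genes with the smallest p in their list were again short of the threshold in the dexamethasone comparisons. HRK, a BH3-only gene, was at 7.36, 6.78 and 6.99 in Abi_Dex, against 6.47, 6.84 and 6.34 in Abi_Ctrl, a difference of 0.49 ± 0.21 (SE, limma adjusted p = 0.683) without Enza_Ctrl replicate 2. BIRC5, or survivin, an inhibitor of apoptosis that also serves in cell division, was at 10.69, 10.46 and 10.44 in Abi_Dex, against 10.73, 11.10 and 11.36 in Abi_Ctrl. Its difference was -0.53 ± 0.22 (adjusted p = 0.676), and the groups did not overlap, as was the case for 12.3% of all genes. TNFRSF10B, the TRAIL receptor DR5, had 0.55 ± 0.23 (adjusted p = 0.676), CASP9, the initiator caspase of the mitochondrial pathway, 0.53 ± 0.29 (adjusted p = 0.728), and USP9X, which removes ubiquitin from MCL1, -0.23 ± 0.19 (adjusted p = 0.812). TNFRSF10B and USP9X also had no overlap between Abi_Dex and Abi_Ctrl. With all 12 arrays HRK, CASP9, BIRC5, FAS (the death receptor, at -0.45 ± 0.31) and USP9X were the genes with the smallest p. Each had an adjusted p of 1.00.

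In LNCaPabl-Enza the corresponding genes without Enza_Ctrl replicate 2 were BCL2L15 at -0.65 ± 0.23 (SE), CASP9 at 0.39 ± 0.32, XIAP, a direct caspase inhibitor, at 0.24 ± 0.19, FASLG, the ligand of FAS, at -0.50 ± 0.29, and VDAC2, a mitochondrial channel that binds BAK1, at 0.19 ± 0.22, each with a limma adjusted p of 1.00. With all 12 arrays they were HRK at -0.82 ± 0.33, CASP9 at 0.64 ± 0.36, XIAP at 0.73 ± 0.35, FASLG at -1.16 ± 0.49 and MARCHF5, a mitochondrial ubiquitin ligase, at 1.04 ± 0.69, each with an adjusted p of 0.523. BCL2L15 was at 8.12 on Enza_Ctrl replicate 2 and between 3.48 and 4.41 on the other 11 arrays.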

How the data were processed

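Single-colour Affymetrix arrays were hybridised with targets made by the WT PLUS kit from 150 ng of total RNA, per the labels' protocols. Each array has 1 log2 value per transcript cluster, as deposited by the authors. Per the submitters' processing notes, Affymetrix Expression Console, RMA and limma were used, without versions. No build or summarisation option is stated in the sources. The lowest value was 1.66 and the highest 18.6, a wide span for RMA, so folds are on the deposited scale and may exceed the change in RNA. Levels of the members are not compared with each other, since rows differ in probes, and marker levels are set side by side across probes only as a rough check of the cell type.

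Symbols came from the platform annotation: 17709 rows had 1 symbol, 6642 had none here and 0 had several; the brightest row of a symbol was kept, leaving 17687 genes. Groups came from titles. limma 3.58.1 in R 4.3.3 (lmFit, eBayes) was fitted to 4 group means of 12 arrays, with Benjamini-Hochberg adjustment over all genes and a threshold of 0.05, and again without Enza_Ctrl replicate 2. Comparisons that share arrays are not independent. Array number limits precision, and the labels do not say how replicates were made. The fit was tested on simulated data. Same-numbered dexamethasone and DMSO arrays had deviations correlating at r from 0.0040 to 0.30, with 2 of 6 pairs over 0.1. The Enza_Ctrl deviations are from a mean that includes replicate 2, so these r values cannot settle pairing. Numbers were not taken as pairs, and a replicate block is given below as an alternative. The members and lists were chosen with earlier results of these data known. All members are named; other genes were named if called, or as the smallest p of each list in each dexamethasone comparison, with NR3C1, SGK1 and KLK3, and as the 3 genes most correlated with each of the 3 members of widest range. Markers and alternatives were listed with the design; those combining 2 omissions, or an omission and quantile normalization, were added after seeing the data. The log2 values of the deposited table were used as they stand.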

Additional observations from a re-analysis of the deposited data

How the results depend on the processing

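The deposited scale, 3 arrays per group and 1 array that stands apart limit these results. BCL2L1 was lower in Enza_Dex than in Abi_Dex in every alternative run. Since these groups did not overlap, no omission of arrays could turn that direction. Runs that left out only DMSO arrays, used only the arrays compared or added the replicate block could not change the BCL2L1 difference. BCL2L1 was not called between the treated lines in the main fit of all 12 arrays and was called without Enza_Ctrl replicate 2. Array weights, which kept that array at a weight of 0.032, also called it (limma adjusted p = 0.00587). For that comparison 1 member was called (BCL2L1) and 502 genes with only the arrays of the groups compared, 767 genes and 1 member with array weights, and 540 genes and 1 member without Enza_Ctrl replicate 2 and with the replicate block. Without that array and with quantile normalization anew, an alternative chosen after seeing the data, 405 genes and 1 member were called. Leaving out single arrays, or that array and another, gave 12 to 459 genes, 0 to 1 members and a BCL2L1 difference from -1.27 to -0.86. The cause was not tested.

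Dexamethasone in LNCaPabl-Abi gave 22 genes with only the arrays compared, 37 with array weights, 39 without Enza_Ctrl replicate 2 and with the replicate block, and 0 to 25 with single arrays left out. The untreated lines gave 0, 252, 303, and 11 to 228 genes under the same settings. LNCaPabl-Enza gave 0 to 1 genes with single arrays left out, and the difference between the responses gave 1 gene without that array and with the block. The replicate block on all 12 arrays called 4 genes for dexamethasone in LNCaPabl-Abi, 64 between untreated and 56 between treated lines, and 0 members; same-numbered arrays correlated best in 4 of 6 cases, a hint from the data and not the design.

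Uncalled member differences that turned sign are grouped by setting. With array weights, BAK1 in LNCaPabl-Abi was -0.093. In LNCaPabl-Enza BCL2 was -0.10, BCL2L1 -0.17, BAX -0.054, BAK1 -0.089 and BMF 0.027. For the difference between responses BCL2L1 was -0.90, BAX -0.41 and BAD 0.053. Between untreated lines BAX was 0.15, BAK1 0.082 and BIK 0.034.

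Without Enza_Ctrl replicate 2 and with the replicate block, BCL2 in LNCaPabl-Enza was -0.068, BCL2L1 -0.15, BAX -0.0068, BAK1 -0.12, BID -0.13 and BMF 0.074. For the difference between responses BCL2L1 was -0.92, BAX -0.49, BAK1 -0.15 and BIK -0.046. Between untreated lines BCL2L2 was 0.012, BAX 0.25, BAK1 0.26 and BIK 0.12. With quantile normalization anew, BID was -0.32 in LNCaPabl-Enza and 0.096 between untreated lines, and BMF was 0.037 between treated lines.

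With single arrays left out, the ranges in LNCaPabl-Abi were -0.25 to 0.0021 for BCL2L2, -0.17 to 0.26 for BAK1 and -0.25 to 0.14 for BAD. Without a turn of sign they were there 0.61 to 0.85 for BCL2L1, -0.71 to -0.32 for BCL2, 0.12 to 0.76 for MCL1, 0.15 to 0.80 for BAX, -0.66 to -0.13 for BID, 0.040 to 0.34 for BIK and -0.55 to -0.097 for BMF. In LNCaPabl-Enza they were -0.061 to 0.44 for BCL2, -0.17 to 2.07 for BCL2L1, -0.064 to 1.46 for BAX, -0.088 to 1.61 for BAK1, -0.16 to 0.24 for BID and -0.22 to 0.020 for BMF. For the difference between responses they were -0.94 to 1.31 for BCL2L1, -0.45 to 0.19 for MCL1, -0.55 to 0.97 for BAX, -0.13 to 1.57 for BAK1, -0.078 to 0.96 for BIK and -0.00028 to 0.45 for BMF. Between untreated lines they were -0.16 to 0.48 for MCL1, -1.22 to 0.31 for BAX, -1.46 to 0.23 for BAK1 and -0.88 to 0.16 for BIK. Between treated lines they were -0.39 to 0.062 for BCL2, -0.066 to 0.15 for MCL1, -0.13 to 0.24 for BAK1, -0.10 to 0.30 for BID, -0.0085 to 0.13 for BIK and -0.19 to 0.051 for BMF. The low ends for BCL2L1, BAX and BAK1 in LNCaPabl-Enza are the values without Enza_Ctrl replicate 2.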

Other observations

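Some genes of the wider apoptosis lists had small p-values between the lines without Enza_Ctrl replicate 2, and none was called with either set of arrays. BIRC5, or survivin, was at 11.05, 11.32 and 11.81 in Enza_Dex, against 10.69, 10.46 and 10.44 in Abi_Dex. These groups did not overlap, as was the case for 20.1% of all genes. The BIRC5 difference was 0.86 ± 0.22 (SE) without Enza_Ctrl replicate 2, with a limma adjusted p of 0.0561. Its SE was 0.42 and its adjusted p 1.00 with all 12 arrays. CFLAR, which encodes the caspase-8 inhibitor c-FLIP, had -0.66 ± 0.23 (adjusted p = 0.211) in the same comparison, and ± 0.27 (adjusted p = 1.00) with all 12 arrays. Its groups did not overlap either. HRK was at 7.55, 8.49 and 7.19 in Enza_Ctrl, against 6.47, 6.84 and 6.34 in Abi_Ctrl, also without overlap. Its difference was 0.82 ± 0.23 (adjusted p = 0.131) without Enza_Ctrl replicate 2 and 1.19 ± 0.33 (adjusted p = 0.260) with it. Between the untreated lines, groups did not overlap for 24% of all genes without that array and for 14.2% with it. BIRC5, CFLAR and HRK were named here after their values were seen.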
